A study of Mus musculus with 21 samples.

Results

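The mouse mitochondrial chromosome carries genes for RNAs and proteins that the nucleus does not supply, and its transcripts were followed here through male germ cell differentiation. Members were the gene rows whose symbol starts with mt-, and this rule found 2 of the 24456 genes listed, *mt-Rnr1* (12S ribosomal RNA) and *mt-Rnr2* (16S ribosomal RNA). The 13 protein genes of the same chromosome are listed without that prefix (*ND1*, *COX1*, *CYTB* and so on), so they were matched by the RefSeq annotation of mm10 after the row names had been seen and are described beside the 2 rRNAs. None of the 22 mitochondrial tRNA genes of the annotation has a row of its own, and they were not analysed here. RNA was measured in 21 libraries of cells fractionated from mouse testis, 3 wild-type (WT) and 3 *H2al2* KO libraries each of pachytene spermatocytes, round spermatids and condensing spermatids, with 2 WT libraries and 1 *H2al2* KO library of spermatozoa. *H2al2* KO cells lack H2A.L.2, a histone variant of late spermatids, and carry no other allele or treatment named in the labels, which give neither the strain nor the age of the animals. The labels number the libraries of a group as replicates without saying that each came from its own animals, so the p-values measure the spread between these libraries, which may be partly technical.

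Mitochondrial DNA is transcribed into long RNAs that run over nearly a whole strand and are then cut into rRNAs, tRNAs and mRNAs. The 12S and 16S rRNAs form the small and large subunits of the mitochondrial ribosome, which translates subunits of the respiratory chain complexes I, III and IV and of the ATP synthase. Germ cells remodel their mitochondria through meiosis and spermatid elongation, and mature sperm keep them only in the midpiece of the tail.

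The 2 rRNA genes lie next to each other on the plus strand of chromosome MT, *mt-Rnr1* at positions 70 to 1024 (955 nt) and *mt-Rnr2* at positions 1094 to 2675 (1582 nt), with the gene of tRNA-Val between them. Of the 13 protein genes, 12 are on the same strand and *ND6* is on the other. The start of each rRNA is shown first, and then 2 protein genes beside a nuclear pseudogene copy, because reads that aligned equally well to more than 1 place were not counted. Each line holds 75 bases, the length of a read, taken 5′ to 3′ from the GENCODE transcripts of GRCm38 (the assembly of mm10), and capitals mark the bases at which a mitochondrial gene and its copy differ. *COX2* (chrMT:7013-7087) and the pseudogene *Gm28661* (minus strand, chr1:24615491-24615565) had 0 differences, and *COX1* (chrMT:5328-5402) and *Gm13340* (minus strand, chr2:22589573-22589647) had 2. The rRNA lines are chrMT:70-144 and chrMT:1094-1168.
mt-Rnr1: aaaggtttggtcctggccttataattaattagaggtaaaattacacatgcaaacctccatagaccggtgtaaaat
mt-Rnr2: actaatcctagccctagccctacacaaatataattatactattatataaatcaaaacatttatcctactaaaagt
COX2: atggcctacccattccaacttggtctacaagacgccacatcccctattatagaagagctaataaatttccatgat
Gm28661: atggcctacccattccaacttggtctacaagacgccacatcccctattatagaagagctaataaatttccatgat
COX1: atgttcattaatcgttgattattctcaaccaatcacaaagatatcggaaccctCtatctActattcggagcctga
Gm13340: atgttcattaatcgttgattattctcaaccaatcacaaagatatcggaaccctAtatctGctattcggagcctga

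Each library held between 2772995 and 8201682 counts on genes, lowest in spermatozoa, and the rows without a gene name, left out of every share below, held 34.6% to 57.7% of the counted reads. The gene of H2A.L.2, listed as *H2afb1*, checked the labels. It stood at 190 to 199 CPM (counts per 1000000 counts on genes) in WT round spermatids and at 19.9 to 24.6 CPM in KO, and was lower in every KO library than in any WT library of its stage. The summed CPM of 5 protamine and late spermatid genes (*Prm1*, *Prm2*, *Tnp1*, *Tnp2*, *Gapdhs*) was 1600 to 4096 in pachytene spermatocytes and 16666 to 26150 in round and condensing spermatids. In WT spermatozoa it was 9808 and 8297, and in the KO spermatozoa library 2757, within the range of pachytene spermatocytes. The summed CPM of 5 meiotic genes (*Sycp1*, *Sycp3*, *Hormad1*, *Piwil1*, *Spag6*) was at least 2025 in pachytene spermatocytes and at most 874 in every other stage. Markers of Sertoli, Leydig and myoid cells, macrophages and epididymal epithelium were also summed. Replicate 3 of WT pachytene spermatocytes stood apart, with a mean chi-square per gene of 12.2 against replicate 2, the highest of 19 replicate pairs. Replicates 2 and 3 of WT round spermatids were the most alike, at 1.06 against 1.90 for the next pair, where pure sampling noise gives about 1. They were kept as separate samples, also in the WT stage comparisons, where no fit with the 2 summed was made.

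The 2 mitochondrial rRNAs were among the most abundant genes of each library, *mt-Rnr2* ranking 1 or 2 and *mt-Rnr1* 2 to 4 among all genes by counts. Together they took 3.11% (95% Wilson interval 3.10% to 3.13%) to 10.9% (10.86% to 10.94%) of the counts on genes, and the widest of the 21 intervals, which cover counting error only, spanned 0.0734 percentage points. In pachytene spermatocytes, *mt-Rnr1* took 2.12%, 2.12% and 1.42% in WT replicates 1 to 3 and 2.00%, 2.32% and 2.03% in KO. In round spermatids it took 1.10%, 1.19% and 1.03% in WT and 1.03%, 1.32% and 0.999% in KO. All 6 round spermatid libraries thus lay below all 6 pachytene libraries. In condensing spermatids it took 1.91%, 1.27% and 1.83% in WT and 2.49%, 2.13% and 1.97% in KO, and in spermatozoa 1.28% and 1.62% in WT and 0.871% in KO. The order of the WT means was pachytene spermatocytes (1.89% ± 0.40, SD, n = 3), condensing spermatids (1.67% ± 0.35, n = 3), spermatozoa (1.45% ± 0.24, n = 2) and round spermatids (1.11% ± 0.08, n = 3). Neighbours in that order lay within each other's spread except spermatozoa and round spermatids.

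*mt-Rnr2*, the RNA of the large ribosomal subunit, took 3.45%, 3.92% and 3.15% in WT pachytene spermatocytes and 3.52%, 4.18% and 3.59% in KO. Its shares were 2.60%, 2.48% and 2.35% in WT round spermatids and 2.09%, 2.27% and 2.22% in KO, so again each round library was below each pachytene library. Condensing spermatids had 4.56%, 3.21% and 4.15% in WT and 5.01%, 4.45% and 4.26% in KO. The 2 WT spermatozoa libraries had 9.62% and 9.28%, the highest shares of any library, and the KO spermatozoa library had 5.06%. The order of the WT means was spermatozoa (9.45% ± 0.24, SD, n = 2), condensing spermatids (3.97% ± 0.69, n = 3), pachytene spermatocytes (3.51% ± 0.39, n = 3) and round spermatids (2.48% ± 0.12, n = 3), and the values of condensing spermatids and pachytene spermatocytes overlapped. In bulk RNA, a change in the number of cells of a type and a change in RNA per cell cannot be told apart, and a share also moves with the rest of the library.

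**Figure D1:**
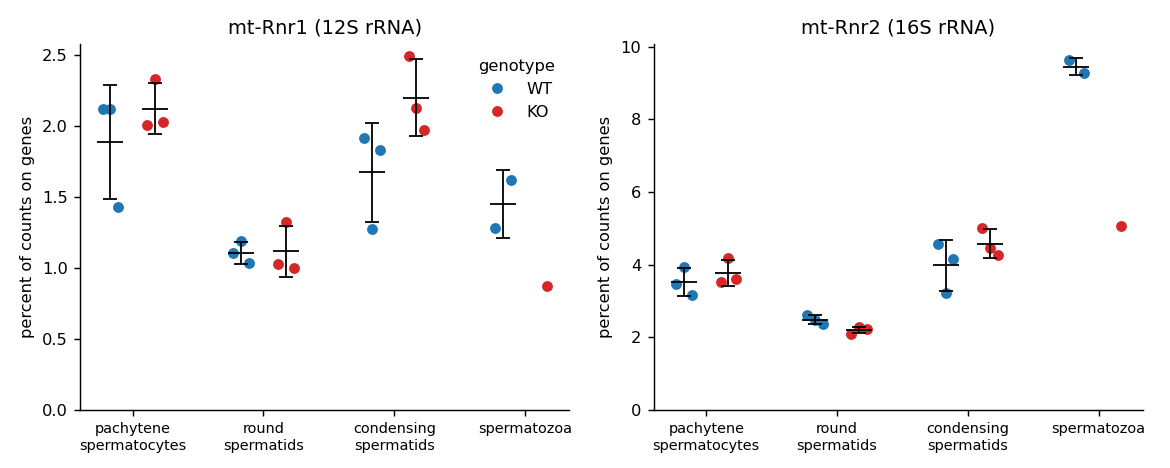
Share of the counts on genes taken by *mt-Rnr1* (left) and *mt-Rnr2* (right) in each library, in percent, by stage and genotype. Points are libraries and bars are the mean ± SD of groups with 2 or 3 libraries. Round spermatids are lowest for *mt-Rnr2* in both genotypes, and the 2 WT spermatozoa libraries are at 9.62% and 9.28% for *mt-Rnr2* but within the range of the other stages for *mt-Rnr1*.

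The 13 protein genes together were less abundant than either rRNA in the 18 libraries of the first 3 stages, and less abundant than *mt-Rnr2* in spermatozoa too. Their summed level was 5048, 4053 and 6540 CPM in WT pachytene spermatocytes and 5535, 6903 and 5106 CPM in KO. It was 2252, 2195 and 2194 CPM in WT round spermatids and 1673, 2021 and 2089 CPM in KO, the lowest levels of any stage. It was 6650, 4614 and 4305 CPM in WT condensing spermatids and 7896, 7243 and 5768 CPM in KO. The highest sums were in WT spermatozoa, 14344 and 14077 CPM, with 9238 CPM in the KO library. *COX1*, a core subunit of complex IV, took 42.8% to 56.1% of these counts in the 18 libraries of the first 3 stages, and *CYTB*, the mitochondrially encoded subunit of complex III, took 9.95% to 16.1% in all 21. Replicate 3 of WT pachytene spermatocytes had the lowest rRNA shares of its stage but the second highest protein-gene sum, 6.997 rRNA counts per protein-gene count against 9.42 to 14.9 in the other 5 pachytene libraries.

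Levels per kilobase differed over several orders of magnitude along the chromosome. In WT round spermatids *mt-Rnr2* had 15648 CPM per kb, *COX1* 775, *ND1* 292 and *CYTB* 233, whereas *COX2* had 8.04, *COX3* 5.47 and *ATP6* 2.62. *ATP8*, *ND3* and *ND4l* were lower still, with at most 11 counts in any library, and *ATP8* and *ND4l* had 0 counts in 7 libraries each, including all 3 of spermatozoa, where a count of 0 allows up to 0.869 to 1.08 CPM at a floor of 3 counts. The neighbouring *COX2*, *ATP8*, *ATP6*, *COX3*, *ND3* and *ND4l* make up 26.3% of the summed length of the protein genes but held 57 to 282 counts per library, 0.187% to 0.695% of the protein-gene counts. Of the 75-base stretches of *COX2*, *ATP6*, *COX3*, *ND3* and *ND4l*, 97.8% to 99.9% occur unchanged in an annotated nuclear transcript, mostly in a row of pseudogenes on the minus strand of chromosome 1 (*Gm28439* to *Gm29216*, positions 24611535 to 24616197). The share was 61.5% in *ND4*, 39.8% in *COX1*, 5.71% in *ND2*, 1.66% in *ND5* and 0 in *mt-Rnr1*, *mt-Rnr2*, *ND1*, *ND6*, *CYTB* and also *ATP8*. *COX2* is identical to *Gm28661* over the whole length of the pseudogene, and *COX1* is 97.6% identical to *Gm13340*. For 150-base stretches the share was 59.2% in *ND4* and 23.6% in *COX1*. The levels of the 6 neighbouring genes, and in part those of *ND4* and *COX1*, are counts of reads that aligned to 1 place only, not of their RNA. Shares of the protein-gene counts carry the same limit. How much of the low counts goes with the copies was not tested. *ATP8* is low with no annotated copy, but only annotated transcripts were searched, so an unannotated copy would be missed. On chromosome 1 the copies of its neighbours *ATP6* (*Gm10925*, ending at 24614651) and *COX2* (*Gm28661*, starting at 24614885) leave a stretch between them that was not searched. *ATP8* is also short (204 nt) and ends at position 7969, past the start of *ATP6* at 7927. Likewise *ND4l* (297 nt) ends at 10173, past the start of *ND4* at 10167. The part of gene length and overlap in the low counts was not tested either.

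**Figure D2:**
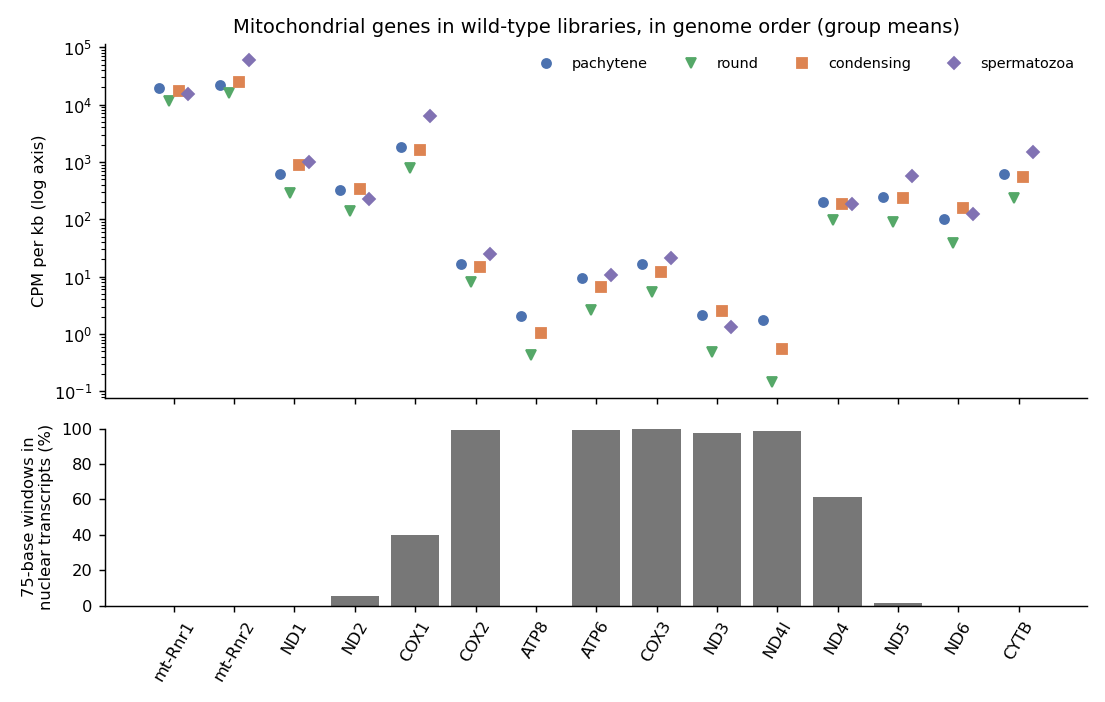
Upper panel: mean level of the 15 listed mitochondrial genes in WT libraries, in CPM per kilobase on a log axis, in genome order, with a symbol for each stage (*ATP8* and *ND4l* are at 0 in spermatozoa and have no symbol there). Lower panel: percent of 75-base stretches of each gene that occur unchanged in an annotated nuclear transcript. The 5 genes with bars of 97.8% or more, and *ATP8* with none, have the 6 lowest levels at every stage.

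The first stage comparison asked how mitochondrial transcripts change as pachytene spermatocytes complete meiosis and become round spermatids. In WT cells, *mt-Rnr1* and all 10 protein genes with enough counts for a test were lower in round spermatids. *mt-Rnr1* fell by 0.59 on the log2 scale (SE 0.20, adjusted p = 0.0204, edgeR), while *mt-Rnr2* had a difference of -0.32 (SE 0.17, adjusted p = 0.105) although the shares of its groups did not overlap. *COX1* fell from 2613, 2200 and 3544 CPM to 1243, 1193 and 1156 CPM, a log2 change of -1.02 (SE 0.17, adjusted p = 0.000131). *ND6*, the complex I subunit encoded on the other strand, fell from 53.2, 52.9 and 54.5 CPM to 20.6, 20.3 and 19.1 CPM, a log2 change of -1.23 (SE 0.13, adjusted p = 2.29e-06). Changes of the other protein genes ran from -0.82 for *COX2* to -1.63 for *ATP6*, and their median was -1.12. Over all 14011 genes tested the median was -0.02, and 35.9% were called lower and 34.4% higher, against 1 of 2 rRNAs and 10 of 10 protein genes. Mitochondrial genes of the same strand can come from the same long RNA, so these are not independent calls. In mean CPM, round spermatids kept 58.6% of the pachytene share of *mt-Rnr1*, 70.5% of *mt-Rnr2* and 42.5% of the protein genes. CPM are scaled by library size only, and with that scaling the median log2 change of all genes was -0.20, not the -0.02 above. These percentages thus show larger falls than the log2 changes given. The call of *mt-Rnr1* rested on single libraries, since its adjusted p was 0.0785, 0.0625, 0.0600 and 0.0733 without pachytene replicate 1, pachytene replicate 2, round replicate 1 and round replicate 3. Without the pachytene replicate 3 that stood apart, both rRNAs were called, *mt-Rnr1* at -0.78 (adjusted p = 0.000623) and *mt-Rnr2* at -0.42 (adjusted p = 0.0245), but *COX2* was not (-0.38, adjusted p = 0.149). *COX2* also missed the threshold without round replicate 1 (adjusted p = 0.0505) or 3 (adjusted p = 0.0858). Other signals moved with this step too. Leydig cell markers (*Star*, *Cyp11a1*, *Cyp17a1*, *Hsd3b6*, *Insl3*) summed to 76.2 to 169 CPM in WT pachytene spermatocytes and 9.93 to 13.5 CPM in WT round spermatids, and to 25.2 to 111 and 6.09 to 9.34 CPM in KO. The nuclear rRNA precursor row *Rn45s* was also lower, at 1.54% to 2.19% of counts and then 0.850% to 1.14% in WT and at 1.41% to 2.04% and then 0.718% to 1.11% in KO. Myoid cell markers (*Acta2*, *Myh11*, *Actg2*, *Cnn1*) were higher in round spermatids, at 56.1 to 93.9 and then 305 to 314 CPM in WT and 62.1 to 79.0 and then 301 to 387 CPM in KO. Macrophage markers (*C1qa*, *C1qb*, *Csf1r*, *Adgre1*) were at 2.09 to 3.47 and then 14.8 to 18.3 CPM in WT, and had means of 2.78 and then 15.1 CPM in KO. The part of all these in the result was not tested.

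The second comparison followed the step from round to condensing spermatids, in which the nucleus is compacted and mitochondria line up along the forming tail. The comparison uses the same WT round spermatid libraries as the one above. Both rRNAs and all 10 tested protein genes were higher in condensing spermatids, where 28.3% of all genes tested were called higher and 21.8% lower, with a median change of 0.04. *mt-Rnr1* rose by 0.54 on the log2 scale (SE 0.20, adjusted p = 0.0424) and *mt-Rnr2* by 0.62 (SE 0.17, adjusted p = 0.00793). *ND6* showed the largest rise, from 20.6, 20.3 and 19.1 CPM to 97.8, 76.8 and 74.4 CPM, a log2 change of 1.99 (SE 0.13, adjusted p = 4.14e-07). *ND1*, a complex I subunit encoded just after the rRNAs, rose from 285, 271 and 282 CPM to 1122, 785 and 669 CPM, a log2 change of 1.56 (SE 0.19, adjusted p = 3.72e-05). *COX1* rose to 3080, 2314 and 2237 CPM, a log2 change of 1.02 (SE 0.17, adjusted p = 0.000377). The protein-gene changes had a median of 1.21 and a lowest value of 0.80 (*COX2*, adjusted p = 0.0434). In mean CPM, condensing spermatids thus came back to 99.5% of the WT pachytene sum of the protein genes and to 88.7% and 113% of the pachytene shares of *mt-Rnr1* and *mt-Rnr2*. The rRNA-to-protein balance of the 3 stages followed, with 15.4 to 16.7 rRNA counts per protein-gene count in WT round spermatids and 6.997 to 14.9 in the WT libraries on either side.

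Condensing replicate 1 carried part of this rise, and without it 6 of the 10 protein genes were called, and *COX2* (adjusted p = 0.165), *ATP6* (0.076), *COX3* (0.222) and *ND4* (0.105) were not. *COX2* missed the threshold without any 1 of the 6 libraries (adjusted p between 0.0507 and 0.165), *COX3* also without any round library (between 0.0563 and 0.0739), and *ND4* also without round replicate 1 (0.0511). The call of *mt-Rnr1* was lost without any 1 of the 3 round libraries or condensing replicates 1 or 3 (adjusted p between 0.0752 and 0.149), whereas *mt-Rnr2* was called in all 13 alternatives (adjusted p between 0.000696 and 0.0416). Other signals rose at the same step. Sertoli cell markers (*Sox9*, *Clu*, *Wt1*, *Amh*, *Rhox5*) summed to 22.4 to 33.0 CPM in WT round spermatids and 295 to 365 CPM in WT condensing spermatids, and Leydig cell markers to 9.93 to 13.5 and 140 to 202 CPM. *Rn45s* took 0.850% to 1.14% of counts in WT round spermatids and 2.34% to 3.37% in WT condensing spermatids. The meiotic genes summed to 533 to 551 and then 656 to 874 CPM in WT and to 501 to 620 and then 675 to 839 CPM in KO. Macrophage markers were at 14.8 to 18.3 and then 20.2 to 24.5 CPM in WT. Their part in the mitochondrial rise was not tested.

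The same steps could be read in the KO libraries, which the WT fits do not use. Between KO pachytene spermatocytes and KO round spermatids, *mt-Rnr1* fell by 0.77 (SE 0.13, adjusted p = 3.49e-05) and *mt-Rnr2* by 0.62 (SE 0.12, adjusted p = 8.35e-05). All 10 tested protein genes were lower, from -0.98 (*ATP6*) to -1.83 (*ND5*), where 38.4% of all genes tested were called lower and 36.5% higher. Between KO round and KO condensing spermatids, *mt-Rnr1* rose by 0.96 (SE 0.13, adjusted p = 8.31e-06) and *mt-Rnr2* by 1.05 (SE 0.12, adjusted p = 7.22e-07). All 10 protein genes were higher, from 1.56 (*COX1*) to 2.30 (*ND6*), where 29.7% of all genes tested were called higher and 24.5% lower. The groups of each of these 12 genes did not overlap at either step, but the share of all genes with groups apart was not counted. All 12 were called in every one of the alternatives that leave out 1 KO library. At the second step the KO condensing libraries had 80.0 to 125 CPM of Leydig cell markers and 205 to 273 CPM of Sertoli cell markers, against 6.09 to 9.34 and 15.5 to 21.4 CPM in KO round spermatids. As in WT, the part of these cells in the rise was not tested.

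**Figure D3:**
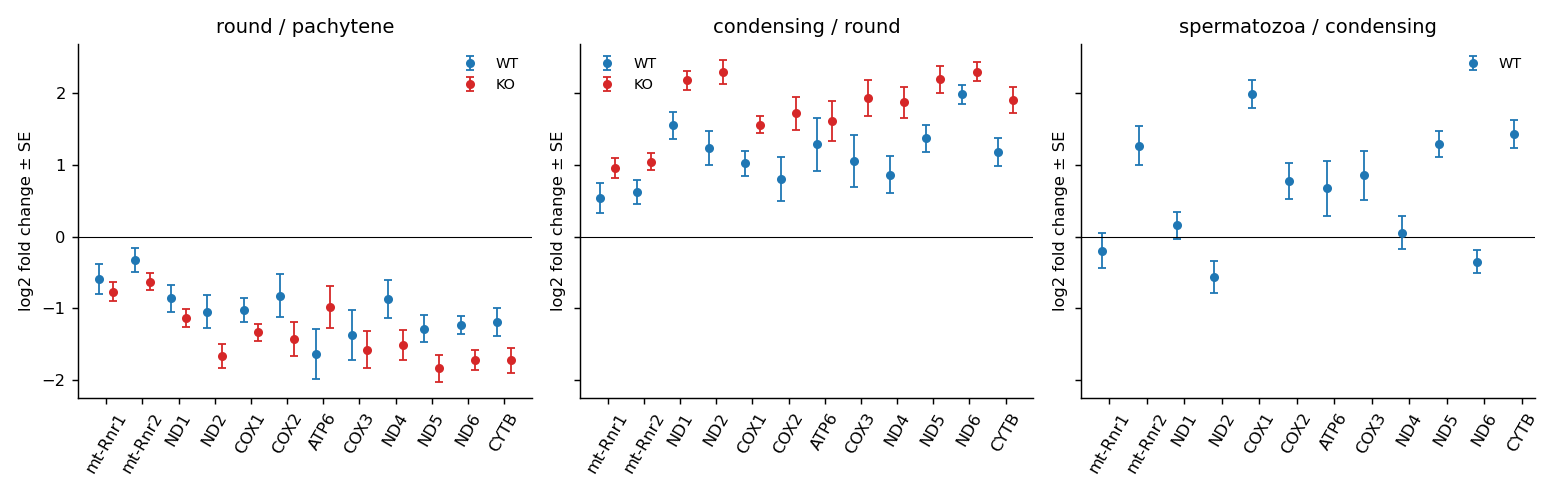
Log2 fold change ± SE (edgeR) of the 2 rRNAs and the 10 protein genes tested, in genome order, for round against pachytene, condensing against round, and spermatozoa against condensing libraries, with WT in blue and KO in red. At the first step every point is below 0 and at the second every point is above 0, whereas in spermatozoa the points run from -0.56 (*ND2*) to 1.99 (*COX1*).

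Spermatozoa had a different balance of mitochondrial RNAs from the 3 earlier stages, and the WT condensing libraries serve as reference here as well as above. *mt-Rnr2* was higher by 1.27 on the log2 scale (SE 0.27, adjusted p = 0.000286, edgeR), whereas *mt-Rnr1* had a difference of -0.19 (SE 0.24, adjusted p = 0.483) and overlapping groups. The ratio of *mt-Rnr2* to *mt-Rnr1* counts was 7.54 and 5.74 in WT spermatozoa and 5.81 in KO spermatozoa. It was 1.63, 1.85 and 2.21 in WT pachytene spermatocytes, 2.36, 2.09 and 2.28 in WT round spermatids and 2.38, 2.52 and 2.27 in WT condensing spermatids. In the 9 KO libraries of these stages it ran from 1.72 to 2.23, so no library of another stage came near those of spermatozoa.

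**Figure D4:**
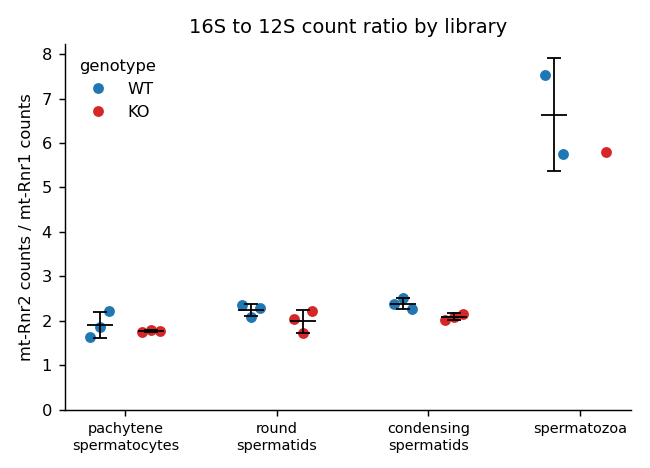
Ratio of *mt-Rnr2* to *mt-Rnr1* counts in each of the 21 libraries by stage and genotype, with the mean ± SD of groups of 2 or 3 libraries. The 18 libraries of the first 3 stages lie between 1.63 and 2.52 and the 3 spermatozoa libraries between 5.74 and 7.54.

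Among the protein genes, 5 were higher in WT spermatozoa than in condensing spermatids, 1 was lower and 4 were not called, where 36.6% of all genes tested were called higher and 35.8% lower. *COX1* rose to 9763 and 10129 CPM, a log2 change of 1.99 (SE 0.20, adjusted p = 1.33e-08). *CYTB* rose from 844, 559 and 498 CPM to 1781 and 1571 CPM, a change of 1.43 (SE 0.19, adjusted p = 9.19e-07), and *ND5*, a complex I subunit, by 1.30 (SE 0.18, adjusted p = 1.31e-06). *COX3* (0.86) and *COX2* (0.78), the other mitochondrial subunits of complex IV, were also called, with adjusted p of 0.0300 and 0.00836 and no more than 103 counts in any of the 5 libraries. *ND2*, of complex I, was lower, from 532, 269 and 265 CPM to 227 and 247 CPM, a change of -0.56 (SE 0.22, adjusted p = 0.0304). *ND1* (0.16), *ND4* (0.06), *ND6* (-0.35) and *ATP6* (0.68) had adjusted p between 0.0676 and 0.833. *COX1* alone thus took 68.1% and 71.95% of the protein-gene counts in the WT spermatozoa libraries, against 46.3% to 52.0% in WT condensing spermatids, and *ND2* took 1.58% and 1.76% against 5.83% to 8.005%.

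The calls of *ND2*, *COX2* and *COX3* were the least stable. Without WT spermatozoa replicate 1 only *COX1*, *ND5* and *CYTB* of the protein genes remained called, with *ND2* at -0.52 (adjusted p = 0.196), *COX2* at 0.56 (0.136) and *COX3* at 0.70 (0.232), and DESeq2 also called 3. Without condensing replicate 1, *ND2* was at -0.15 (adjusted p = 0.498), and without condensing replicate 2, *COX3* was at 0.56 (adjusted p = 0.0959). Without spermatozoa replicate 2, *ND2* was at -0.58 (adjusted p = 0.127) and *COX3* at 1.01 (adjusted p = 0.0502). Other genes gained a call. *ND6* was called lower with the replicate number as a block (-0.39, adjusted p = 0.00998), with no filter (-0.40, adjusted p = 0.0316) and without condensing replicate 2 (adjusted p = 0.0427) or 3 (adjusted p = 0.0131). *ATP6* (1.14, adjusted p = 0.0192) and *ND4* (0.47, adjusted p = 0.0279) were called higher without condensing replicate 1. The spermatozoa libraries differed in other ways too. Epididymal epithelium markers (*Crisp1*, *Lcn5*, *Defb20*, *Spink8*) summed to 1798 and 1968 CPM in WT spermatozoa and 566 CPM in the KO library, against at most 2.47 CPM in any other library. Of these 4 markers, 1 was at 0 in each WT spermatozoa library and 2 were at 0 in the KO library. The labels nevertheless give testis as the tissue of all libraries. Macrophage markers summed to 229 to 238 CPM in WT spermatozoa, 896 CPM in the KO library and at most 24.5 CPM elsewhere, and *Rn45s* took 5.14% and 6.08% of counts in WT and 15.9% in KO spermatozoa. Reads aligned to more than 1 place made up 15.5% and 15.4% of the counted reads in WT spermatozoa and 11.6% in KO, against 3.70% to 5.03% in the other 18 libraries. Markers of testis cells were lower than in WT condensing spermatids, with 9.74 to 11.01 against 140 to 202 CPM for Leydig, 86.9 to 91.3 against 310 to 393 CPM for myoid and 199 to 233 against 295 to 365 CPM for Sertoli cells. The part of these in the levels of mitochondrial RNA was not tested. With 1 KO library, spermatozoa were not compared between genotypes.

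The comparison between genotypes asked whether loss of H2A.L.2 changed mitochondrial transcripts at each stage. No rRNA and no protein gene was called by edgeR in pachytene spermatocytes, round spermatids or condensing spermatids, where 0%, 0.0156% and 0.00728% of all genes tested were called in either direction. In pachytene spermatocytes *H2afb1* itself was not called by edgeR (log2 difference -2.75, adjusted p = 0.484). A missing call there thus says little about smaller differences. Without WT pachytene replicate 3, edgeR called 156 genes higher and 87 lower in KO, of 12555 tested, but no mitochondrial rRNA or protein gene. *mt-Rnr1* differed by 0.21 (SE 0.17, adjusted p = 0.693), 0.00 (SE 0.11, adjusted p = 1) and 0.41 (SE 0.22, adjusted p = 0.846) on the log2 scale, KO against WT, in the order of the stages. *mt-Rnr2* differed by 0.14 (SE 0.14, adjusted p = 0.734), -0.18 (SE 0.07, adjusted p = 0.765) and 0.22 (SE 0.23, adjusted p = 0.936). The *mt-Rnr2* shares of the 2 genotypes did not overlap in round spermatids, and those of *mt-Rnr1* did not overlap in condensing spermatids. How many of all genes had genotypes apart in this way was not counted. At an unadjusted p under 0.05 were 0, 1 and 0 of the 2 rRNAs and 1, 3 and 7 of the 10 protein genes in the 3 stages, where 6.66%, 5.88% and 6.33% of all genes tested were. The protein genes largely share long RNAs, so their number is not a number of independent genes. DESeq2 called no rRNA in any stage, and of the protein genes called *ND5* in condensing spermatids (adjusted p = 0.0349) and none elsewhere. Of all 8781 genes it tested in condensing spermatids, it called 3 higher and 10 lower. In condensing spermatids edgeR called *ND2*, *ND4* and *ND5* with no filter (adjusted p between 0.017 and 0.0449). Of all 19739 genes tested in that fit, 7 were called higher and 20 lower. With the replicate number as a block it called these and *CYTB* (between 0.000419 and 0.0123). Of all 13734 genes tested with the block, 9 were called higher and 17 lower. The replicate numbers are not known to pair the libraries.

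In condensing spermatids, all 10 tested protein genes had a positive difference, from 0.28 (*COX1*) to 0.85 (*ND4*), with a median of 0.55 where the median of all genes was -0.01. *ND4* had 382, 200 and 180 CPM in WT and 524, 483 and 344 CPM in KO (log2 difference 0.85, SE 0.22, adjusted p = 0.446). *ND2* had 532, 269 and 265 CPM in WT and 681, 637 and 481 CPM in KO (0.78, SE 0.21, adjusted p = 0.483). *ND5* had 555, 389 and 362 CPM in WT and 789, 742 and 507 CPM in KO (0.67, SE 0.17, adjusted p = 0.446). These 3 genes, of complex I, overlapped between genotypes only through WT replicate 1, the highest WT library for each. Without that library *ND2* (1.18) and *ND4* (1.26) were called, both with adjusted p = 0.0146, but *ND5* was not. Of all 13951 genes tested in that fit, 3 were called higher and 1 lower. In round spermatids 8 of the 10 differences were negative (median -0.15), and in pachytene spermatocytes 8 of 10 were positive (median 0.24). *ND6* in pachytene spermatocytes, at 53.2, 52.9 and 54.5 CPM in WT and 90.2, 81.2 and 64.2 CPM in KO, had a difference of 0.58 (SE 0.13, unadjusted p = 0.00193, adjusted p = 0.656). The stage dependence of the KO effect was tested as an interaction over 18 libraries and gave no call for any of the 12 genes, where 0% of all genes were called. All protein genes but *ND6* lie on the same strand and can come from the same long RNA. A count of them is thus not a count of independent genes. Between condensing and round spermatids, 7 of 10 protein genes and *mt-Rnr2* had an unadjusted p under 0.05 in the interaction test, where 2.81% of all genes did. The KO effects of the 10 protein genes differed there by 0.30 to 1.04, with adjusted p of 1. Between round spermatids and pachytene spermatocytes it was 1 of 10 protein genes (*ND6*, -0.50, adjusted p = 0.676), where 7.25% of all genes had such a p. Sertoli and Leydig cell markers were lower in KO than in WT condensing spermatids (205 to 273 against 295 to 365 CPM, and 80.0 to 125 against 140 to 202 CPM), as were macrophage markers (12.2 to 18.2 against 20.2 to 24.5 CPM) and *Rn45s* (1.41% to 1.57% against 2.34% to 3.37%). Sertoli cell markers were also lower in KO pachytene spermatocytes (10.3 to 20.3 against 25.8 to 33.8 CPM) and KO round spermatids (15.5 to 21.4 against 22.4 to 33.0 CPM), and Leydig cell markers in KO round spermatids (6.09 to 9.34 against 9.93 to 13.5 CPM). Their part in these differences was not tested.

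**Figure D5:**
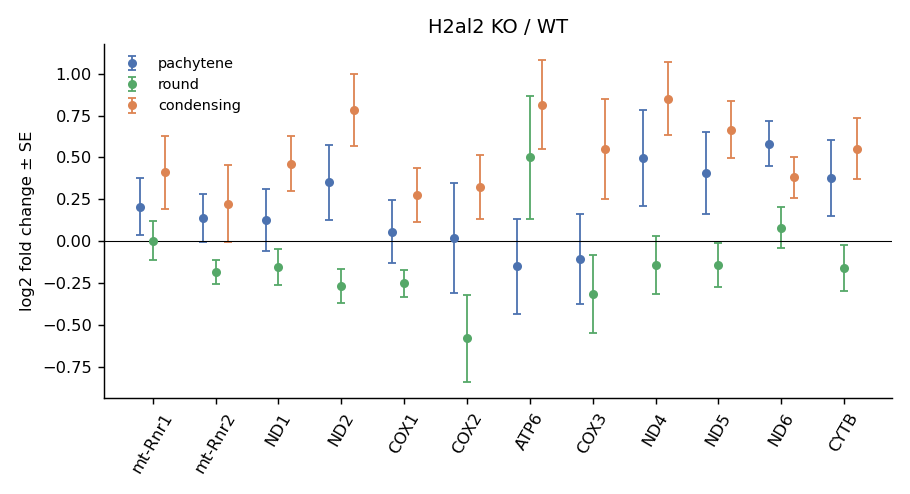
Log2 fold change ± SE (edgeR) of *H2al2* KO against WT for the 2 rRNAs and the 10 protein genes tested, in pachytene spermatocytes, round spermatids and condensing spermatids. In condensing spermatids all 12 points are above 0 (0.22 to 0.85), and none of the 36 values passed an adjusted p of 0.05.

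Nuclear genes that maintain, transcribe and translate the mitochondrial genome were read from a list of 43 genes. Between WT pachytene spermatocytes and round spermatids, 25 of the 43 fell, 6 rose and 12 were not called, with a median of -0.64, where 35.9% of all genes tested fell and 34.4% rose. *Polrmt*, the mitochondrial RNA polymerase, fell from 38.8 to 45.2 CPM to 10.4 to 14.6 CPM (log2 change -1.49, SE 0.15, adjusted p = 1.3e-06). *Lrpprc*, which binds mitochondrial mRNAs, fell by 0.94 (SE 0.12, adjusted p = 1.54e-05), *Elac2*, which trims the 3′ ends of tRNAs, by 1.86, and the RNA-binding protein gene *Fastkd1* by 3.10. *Tfam*, which packages mitochondrial DNA and helps start its transcription, moved the other way, from 22.2 to 38.6 CPM to 181 to 208 CPM (2.83, SE 0.22, adjusted p = 2.2e-07), as did *Fastkd2* (1.12) and the tRNA-processing gene *Trmt10c* (0.94). In KO cells 31 fell and 5 rose at this step (38.4% and 36.5% of all genes), among them *Polrmt* (-1.45) and *Tfam* (2.72).

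Between WT round and condensing spermatids, 8 of the 43 rose and 12 fell, where 28.3% of all genes rose and 21.8% fell. *Fastkd1* rose by 2.01 (adjusted p = 6.34e-06) and *Slirp*, the partner of *Lrpprc*, fell by 0.88 (adjusted p = 0.00106), while *Polrmt* (0.14), *Tfam* (0.11) and *Lrpprc* (0.28) had adjusted p of 0.488, 0.693 and 0.0789. In spermatozoa 7 of the 42 tested rose and 15 fell, where 36.6% of all genes rose and 35.8% fell, so the falls were near the background. *Tfam* fell from 186 to 276 CPM to 35.6 and 36.8 CPM (-2.60, SE 0.20, adjusted p = 3.33e-10), and *Mgme1*, a nuclease of mitochondrial DNA upkeep, rose by 2.59 (adjusted p = 6.87e-08). No gene of this list was called between genotypes by edgeR at any stage, and 1, 4 and 4 of the 40, 38 and 42 tested had an unadjusted p under 0.05 in pachytene spermatocytes, round spermatids and condensing spermatids, against 6.66%, 5.88% and 6.33% of all genes.

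The respiratory chain is also built from nuclear genes, and 34 of these were read beside the 13 mitochondrial ones. Between WT pachytene spermatocytes and round spermatids, 21 of the 34 fell and none rose, with a median of -0.46, where 35.9% of all genes fell and 34.4% rose. *Uqcrc2* and *Cyc1* of complex III fell by 1.96 (SE 0.15, adjusted p = 1.92e-07) and 1.63 (SE 0.19, adjusted p = 4.73e-06), and *Atp5a1* of the ATP synthase by 1.31 (SE 0.13, adjusted p = 1.27e-06). Between WT round and condensing spermatids, where all 10 tested mitochondrial protein genes rose, 11 of the 34 nuclear ones fell and 5 rose (median -0.27), where 21.8% of all genes fell and 28.3% rose. *Cox6b2* (-0.73), a complex IV subunit of the testis, and *Cox5a* (-0.65) were among those that fell, and *Cox7b* (2.33) and *Cox8a* (1.22) among those that rose. *Cox7b* went from 0.391 to 1.02 CPM to 2.40 to 4.76 CPM, and *Cox8a* from 3.28 to 4.97 CPM to 9.44 to 11.4 CPM. The lowest *Cox7b* value is at the floor of 3 counts (0.391 CPM in WT round replicate 2). Sertoli and Leydig cell markers rose at this step, as given above, and their part here was not tested. In the KO libraries 14 of the 34 fell and 5 rose at the same step (24.5% and 29.7% of all genes). In spermatozoa 8 of the 34 rose and 14 fell, where 36.6% of all genes rose and 35.8% fell. *Cox8c* (-2.53, adjusted p = 2.41e-10) and *Cox6b2* (-1.88, adjusted p = 3.49e-08), complex IV subunits of the testis, were lower. *Cox8a* (3.05, adjusted p = 2.56e-12), *Cox7b* (2.80, adjusted p = 2.39e-08) and *Cox6b1* (1.79, adjusted p = 2.52e-08), subunits of the same complex, were higher. The sums of macrophage and epididymal markers given above were high in the same libraries, and their part in these changes was not tested. No respiratory chain gene of the list was called between genotypes by edgeR, and 0, 1 and 2 of those tested had an unadjusted p under 0.05 in the 3 stages, below the shares of all genes given above.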

How the data were processed

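Total RNA of fractionated cells was depleted with a RiboZero kit directed at cytoplasmic rRNA, made into stranded libraries and sequenced as 75-base pairs. The authors aligned reads to mm10 with STAR 2.7.11b, counted them over exons with HTSeq (reverse strand, strict intersection, no read aligned to more than 1 place) and deposited raw counts per gene for each of the 21 libraries. Each file lists 24456 genes and ends with 5 rows without a gene name, and these rows entered no share or test. Depletion and the dropping of repeated alignments both act on the levels given, so a share is of counted RNA only.

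Groups came from the labels. The test was the quasi-likelihood F test of edgeR (version 4.0.16, in R 4.3.3) with TMM factors, the filterByExpr filter and Benjamini-Hochberg adjustment over all genes at 0.05. KO and WT were compared within a stage, stages within a genotype over its 9 libraries, and WT spermatozoa (2) with WT condensing spermatids (3). SE is the absolute log2 fold change divided by the square root of F. Summed shares and ratios carry no test. Depth gave 28728 or more counts for each rRNA and 138 or more for *ND1*, *ND2*, *COX1*, *ND4*, *ND5*, *ND6* and *CYTB* in each library. *ATP8*, *ND3* and *ND4l* did not pass the filter on low counts.

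The members and gene lists were chosen with earlier results of these data known. Both rRNAs and all 13 protein genes are named, and of the 2 nuclear lists the 3 most changed genes each way (adjusted p under 0.05, 1 CPM or more, groups apart), beside *Polrmt*, *Tfam* and *Lrpprc*, with a selection of these printed. Gene positions came from the RefSeq annotation of GRCm38.p6 and sequences from GENCODE vM21 transcripts, against which 75-base stretches were matched exactly on either strand. Alternatives were DESeq2 1.42.0, DESeq2 size factors, library size only, scaling without the rRNAs, no filter, the replicate number as a block, a fit on all 18 libraries, other denominators and each library left out. Alternatives for the protein genes, their share and the rRNA ratio were added after seeing the data. The fit was tested on simulated data.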

Additional observations from a re-analysis of the deposited data

Results flagged for a closer look

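The KO spermatozoa library entered no test, since it is the only one of its group. *COX1* took 77.5% of its mitochondrial protein-gene counts, above the 68.1% and 71.95% of the 2 WT spermatozoa libraries. *ND6* took 0.716%, above their 0.487% and 0.412%. *ND6* is the protein gene of the other strand. Both differences lie between single libraries, and 15.9% of this library's counts on genes fell on *Rn45s*. Its late spermatid genes summed to 2757 CPM, against 9808 and 8297 CPM in the WT libraries.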

How the results depend on the processing

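Low counts kept *ATP8*, *ND3* and *ND4l*, with at most 11 counts in any library, out of the tests. The fall of the rRNAs between WT pachytene spermatocytes and round spermatids (1 of 2 called) counted 2 with library size only and 2 in the fit on all 18 libraries, and 0 to 2 with 1 library left out. Their rise to WT condensing spermatids (2 called) counted 1 with DESeq2 size factors, 1 with the replicate number as a block, and 1 to 2 with 1 library left out. For the 10 protein genes the same rise counted 6 to 9 with 1 library left out. Library size only moved the median of all genes by -0.19 and 0.06 at these 2 steps in WT and by -0.15 between KO pachytene spermatocytes and round spermatids, and no rRNA or protein gene changed direction at these steps. In spermatozoa (6 called) DESeq2 called 3, and 3 to 7 were called with 1 library left out. In condensing spermatids, KO against WT (0 called), DESeq2 called 1 protein gene, no filter 3, the block 4 (*ND2*, *ND4*, *ND5*, *CYTB*, adjusted p between 0.000419 and 0.0123), and 0 to 2 with 1 library left out. Counting replicates 2 and 3 of WT round spermatids as 1 sample changed no call or direction of KO against WT there. The WT stage comparisons were not repeated in this way. Whether the replicate numbers pair the libraries is not known. No comparison had all correlations of same-numbered libraries over 0.1 (-0.28 to 0.38), but those of KO and WT round spermatids were 0.37, 0.18 and 0.099. With the block, edgeR called 18 genes higher and 43 lower in KO round spermatids (1 and 1 without it). In KO condensing spermatids it called 9 and 17 (0 and 1 without it). The cause of the changes in this paragraph was not tested.

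With all counted reads as denominator, the log2 ratio of the rRNA share was -0.0823 for KO against WT pachytene spermatocytes (0.12 over counts on genes) and -0.62 for KO round against pachytene (-0.83), and that of the protein-gene share was -1.39 (-1.60). The spermatozoa to condensing log2 ratio of the rRNA ratio was 1.26 to 1.66 with 1 library left out (1.47 with all). Leaving out both rRNAs gives no value for their share.

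Of 1235 values of single genes, 1155 kept direction and call, 39 lost and 19 gained the call, and 22 changed sign, none of them called. In KO against WT pachytene spermatocytes, leaving out 1 library gave log2 differences of -0.0375 to 0.34 (*ND1*), -0.11 to 0.29 (*COX1*), -0.25 to 0.52 (*COX2*), -0.36 to 0.10 (*ATP6*) and -0.28 to 0.14 (*COX3*), and library size only gave -0.0060 for *COX2*. In round spermatids these were -0.15 to 0.0815 (*mt-Rnr1*), -0.28 to 0.0807 (*ND4*), -0.27 to 0.0158 (*ND5*) and -0.26 to 0.0199 (*CYTB*), and the block gave -0.0092 for *mt-Rnr1*. In spermatozoa they were -0.0162 to 0.40 (*ND1*) and -0.15 to 0.47 (*ND4*), and the block gave -0.0626 for *ND4*.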
